A study of Mus musculus with 24 samples.

Results

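Conventional dendritic cells (cDCs) take up antigen in tissues and show it to T cells, and in the mouse spleen they form the cDC2 and the cDC1 subset. The cDC2 subset depends on the transcription factor Irf4 and on Notch signalling and is known for priming CD4 T cells. The cDC1 subset depends on Irf8, Batf3 and Id2 and is known for taking up dead cells, for showing their proteins to CD8 T cells on MHC class I (cross-presentation), and for making interleukin-12. The comparison described here is the unperturbed difference between these subsets, read from the 4 cDC2 and the 4 cDC1 libraries of mice without Cre recombinase. These 8 libraries were chosen by their labels from the 24 of the series.

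The cDC2 and cDC1 libraries each came from spleens of steady-state C57Bl/6 mice aged 6 to 12 weeks, with 2 libraries per subset from each of 2 mouse lines. One line was R26-Zeb2Tg/Tg, which carries a Zeb2 transgene in the Rosa26 locus. The other was Zeb2fl/fl, labelled KO, which carries a floxed Zeb2 gene. Without Cre the transgene is not switched on and the floxed gene is not cut, but all control cells carry one or the other allele. The study as a whole asked how Zeb2, a zinc-finger repressor, acts on dendritic cell development. Spleens were digested with enzymes before the cells were sorted, and the labels do not name the antibodies, so a gene whose protein was used in the sort may differ by selection. Nor do they say that each replicate is its own animal, and p-values therefore cover library-to-library spread, which may be technical.

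The 8 libraries held 21972763 to 26830584 counts in genes, and 14150 to 14219 genes were detected in cDC2 libraries and 13396 to 13960 in cDC1 libraries. Levels are given as CPM, counts relative to the size of each library, after scaling by edgeR's TMM method, with the R26-Zeb2Tg/Tg replicates 1 and 2 before the Zeb2fl/fl replicates 1 and 2 in each subset. Fold changes are cDC2 over cDC1 and come from edgeR's quasi-likelihood test with the line as covariate, with Benjamini-Hochberg adjustment over all 12517 genes tested. A gene is said to be higher or lower in cDC2 where its adjusted p was under 0.05. Values after ± are SDs of 4 libraries for CPM and standard errors for log2 fold changes. In bulk RNA, fewer cells of a type and less RNA per cell cannot be told apart.

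The labels held up against the defining genes of each subset. Xcr1, the receptor for XCL1 that marks cDC1, stood at 3.98, 4.43, 3.57 and 6.77 CPM in cDC2 libraries, against 1027, 1267, 1011 and 984 CPM in cDC1 libraries. Clec9a, a lectin that binds exposed actin of dead cells, was at 5.37, 6.98, 17.7 and 12 CPM in cDC2 libraries, against 244, 277, 253 and 285 CPM in cDC1 libraries. Both ranges lay far apart, with every cDC2 library below every cDC1 library. Irf8, the transcription factor that cDC1 need to develop, was 42.7-fold lower in cDC2 (log2 fold change -5.42 ± 0.16, adjusted p = 1.3e-10). Sirpa, an inhibitory receptor for CD47 that marks cDC2, stood at 1272, 1379.9, 1558 and 1348 CPM in cDC2 libraries, against 7.03, 7.82, 2.15 and 7.26 CPM in cDC1 libraries. Irf4, the cDC2 factor of the same family, averaged 186 ± 55.2 CPM in cDC2 and 6.24 ± 1.82 CPM in cDC1. Of the 24 tested genes of a list of cDC1 identity, 22 were lower in cDC2 and 1, the repressor gene Bcl6, was higher, though its subsets overlapped and it did not pass in the R26-Zeb2Tg/Tg line alone (adjusted p = 0.105). Of the 21 tested genes of a cDC2 list, 18 were higher and 1, the inhibitory lectin gene Clec12a, was lower. Over all genes tested 26.3% were higher and 25.1% were lower in cDC2, and every share below is to be read against these.

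**Figure D1:**
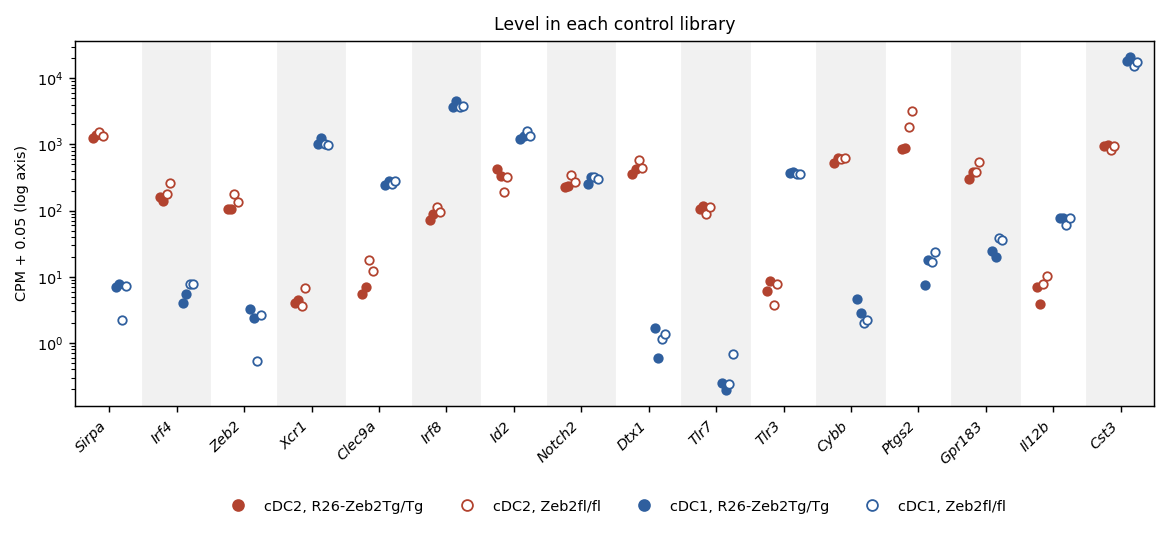
CPM of 16 genes in each of the 8 control libraries on a log axis (a pseudocount of 0.05 CPM is added), with cDC2 libraries left in each pair and cDC1 libraries right; filled points are the R26-Zeb2Tg/Tg line and open points the Zeb2fl/fl line. For 15 of the genes the 4 points of one subset lie on one side of all 4 points of the other, and for Notch2 they overlap. The 16 genes were picked for display. Over all 12517 genes tested, every cDC2 library lay above every cDC1 library for 24.2% and below for 23.5%.

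Summed markers of other cell types were mostly higher in cDC2, and 1 cDC1 library stood apart. On the second principal component (5.44% of the variance) the cDC2 libraries lay by line, at 19.3 and 20.4 for R26-Zeb2Tg/Tg and at -21.9 and -18.3 for Zeb2fl/fl. The cDC1 libraries of Zeb2fl/fl lay at -16.4 and -14.7, the first R26-Zeb2Tg/Tg cDC1 library at 38.6 and the second at -6.92, with the other line. Cd3e, part of the T cell receptor complex, was at 3.38, 1.95, 0.113 and 1.7 CPM in cDC2 libraries, against 4, 0.396, 0.605 and 0.38 CPM in cDC1 libraries. The cDC1 library at 38.6 was lowest for early-response genes such as Nr4a1, an orphan nuclear receptor induced by receptor signals, which was at 2698, 2610.1, 5507 and 5079 CPM in cDC2 libraries, against 1017, 2371, 2221 and 2571 CPM in cDC1 libraries. The summed CPM of 13 T cell markers was 73.6 to 108 CPM in cDC2 and 8.86 to 37.1 CPM in cDC1, and most of the cDC2 sum was Tcf7. The 37.1 CPM came from the cDC1 library at 38.6 on the second component, beside 8.86 to 14.7 CPM in the others. That library was also the highest of cDC1 for the neutrophil, erythroid and plasma cell sums, and for no other list. Of B cell markers Cd22, an inhibitory receptor shared with some dendritic cells, was at 128 against 9.65 CPM. The list of 13 B cell markers summed to 416 to 443 CPM in cDC2 and 146 to 193 CPM in cDC1. Neutrophil markers summed to 114 to 180 CPM in cDC2 and 5.11 to 15.4 CPM in cDC1, carried by the gelatinase gene Mmp9 and by Csf3r, and the defining S100a8 was at 1.94 against 0.917 CPM. NK cell markers summed to 125 to 257 CPM in cDC2 and 64.7 to 111 CPM in cDC1 and erythroid markers to 15.6 to 30.7 CPM in cDC2 and 4.84 to 13.3 CPM in cDC1, and plasma cell markers, which include Irf4 and Xbp1, summed to 362 to 634 CPM in cDC2 and 259 to 304 CPM in cDC1. Platelet markers summed to 4.43 to 9.48 CPM in cDC2 and 4.2 to 5.89 CPM in cDC1, and mast cell and basophil markers to 624 to 787 CPM in cDC2 and 393 to 493 CPM in cDC1, carried by Kit and with Mcpt8, Ms4a2, Prss34 and Tpsb2 at 0 in both subsets.

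Genes of the mononuclear phagocytes nearest to dendritic cells were higher in cDC2. Of 19 tested monocyte markers 14 were higher and 1 was lower, and the list summed to 5541 to 10488 CPM in cDC2 and 1899.5 to 3586 CPM in cDC1. Lyz2, the myeloid lysozyme, was at 1558, 1111, 2412 and 1944 CPM in cDC2 libraries, against 237, 176, 302 and 357 CPM in cDC1 libraries. Of 18 tested red pulp macrophage markers 11 were higher and 4 lower, and the sum was 707 to 1005 CPM in cDC2 and 373 to 477 CPM in cDC1. Of 18 tested markers of plasmacytoid dendritic cells 10 were higher and 5 were lower, with a sum of 452 to 546 CPM in cDC2 and 289.8 to 338 CPM in cDC1, while the defining Siglech was at 7.88 against 0.435 CPM. Many of these genes are also used by cDC2 themselves, and the part of other cells in the differences below was not tested.

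Of the 12517 genes tested, 3286 were higher and 3145 lower in cDC2, which is 51.4% in all. A fold change of at least 2 was reached by 1696 of the higher genes (13.5% of those tested) and 1158 of the lower genes (9.25%). The first principal component took 78.3% of the variance and separated the subsets. The balance of directions depended on scaling: with library totals alone the median log2 fold change moved by 0.14, and the split became 4180 higher and 2411 lower. Without the cDC1 library that stood apart the counts were 3036 higher and 2829 lower. Of the 6431 genes called, 3583 also passed in each line alone, where each subset had 2 libraries.

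**Figure D2:**
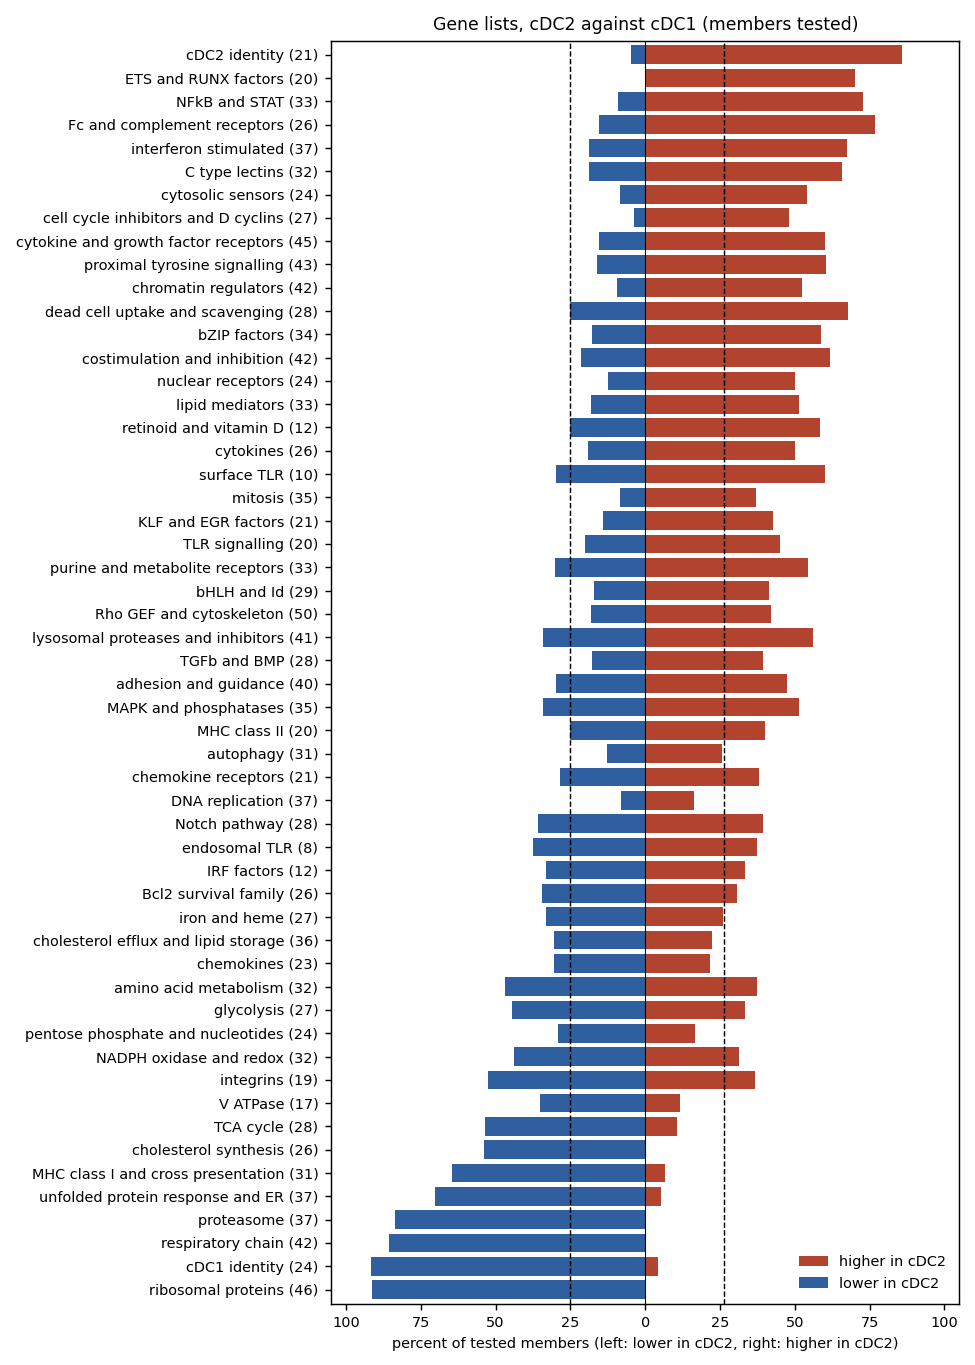
For each of the gene lists by function, the percentage of tested members that were higher in cDC2 (right) and lower in cDC2 (left) at an adjusted p under 0.05; the dashed lines mark the shares over all tested genes, 26.3% and 25.1%. Lists of cytosolic sensors, lectins, Fc receptors and signalling lie to the right, and lists of ribosome, respiratory chain, proteasome, endoplasmic reticulum and cholesterol synthesis lie to the left.

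Transcription factors differed by family. Zeb2 was at 104, 104, 178 and 133 CPM in cDC2 libraries, against 3.27, 2.38, 0.491 and 2.58 CPM in cDC1 libraries, and every cDC2 library stood above every cDC1 library in both lines. Id2, which holds E proteins off DNA, was at 420.4, 332, 189 and 317 CPM in cDC2 libraries, against 1226, 1322, 1588 and 1317 CPM in cDC1 libraries. A list of interferon regulatory factors and cofactors held 12 genes, of which 4 were higher and 4 lower in cDC2. The factors Irf4 and Irf2 and the cofactors Irf2bp2 and Irf2bpl were higher, and Irf8, Irf5 and Irf7 were among those lower. Irf5, which drives inflammatory cytokine genes, averaged 389.9 ± 48.3 CPM in cDC2 and 682 ± 99.2 CPM in cDC1. The other 4 did not pass. Irf2 did not pass in the Zeb2fl/fl line alone (adjusted p = 0.0766), and Irf2bpl lost its call when any of 5 libraries was left out (adjusted p from 0.0806 to 0.131).

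Of 20 ETS and RUNX factors, 14 were higher in cDC2 and 0 were lower, with a median log2 fold change of 0.60 against 0.04 over all genes. Spib, an ETS factor used by B cells and plasmacytoid dendritic cells, was 36.9-fold higher (145 against 3.95 CPM), and Elk3 and Etv5 were 9.74-fold and 6.2-fold higher. Among bZIP factors 20 of 34 were higher and 6 lower. Cebpb, a factor of myeloid activation, was at 83.3, 57.6, 140.4 and 140.4 CPM in cDC2 libraries, against 9.09, 14.1, 6.73 and 8.36 CPM in cDC1 libraries. Its relative Cebpd was 5.06-fold higher. Batf3, needed for the cDC1 lineage, was 1.87-fold lower (39.9 against 74.6 CPM), and Atf4 and Xbp1, both factors of the stress response in the endoplasmic reticulum, were 1.52-fold and 1.33-fold lower. Xbp1 did not pass with scaling by library totals alone (adjusted p = 0.0647) or in either line alone (adjusted p = 0.0595 and 0.0612).

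Klf4, which a branch of cDC2 requires, averaged 121 ± 40 CPM in cDC2 and 19.2 ± 4.43 CPM in cDC1. Nuclear receptor genes were higher in 12 of 24 cases and lower in 3. Rarg, a receptor for retinoic acid, was 24.8-fold higher and Nr1h3, the oxysterol receptor LXR alpha, 6.1-fold higher, while their partner Rxra was 3.57-fold lower (16.5 against 59 CPM). Mycl, a Myc relative used by cDCs, was 4.19-fold lower in cDC2 (235 against 981 CPM). Bhlhe40, a repressor tied to cytokine production, was 7.03-fold higher (866 against 121 CPM), and Tfeb, the lysosomal regulator, 3.72-fold higher. Zbtb46, a factor shared by all cDCs, stood at 164 against 192 CPM with an adjusted p of 0.0875.

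Innate sensors were divided between the subsets. Among 8 genes of the endosomal Toll-like receptors (TLRs), 3 were higher and 3 lower in cDC2. Tlr7, the receptor for single-stranded RNA, was at 106, 119, 90.2 and 114 CPM in cDC2 libraries, against 0.202, 0.149, 0.189 and 0.633 CPM in cDC1 libraries. Tlr3, the receptor for double-stranded RNA, was at 6.12, 8.46, 3.76 and 7.62 CPM in cDC2 libraries, against 365, 382, 358 and 353 CPM in cDC1 libraries. These receptors divided completely between the libraries, in opposite directions. Tlr11 and Tlr12, which bind profilin of Toxoplasma, were 14.6-fold and 28.9-fold lower in cDC2, and Tlr8 had 1130 counts over the cDC2 libraries and 5 over the cDC1 libraries (10.6 against 0.051 CPM). Tlr9, which binds DNA, was 2.01-fold higher at low levels (7.22 against 3.53 CPM), but the subsets overlapped and it did not pass in the Zeb2fl/fl line alone (adjusted p = 0.0799). Tlr13, a sensor of bacterial ribosomal RNA, and Unc93b1, the chaperone that brings endosomal TLRs to their place, did not pass, with log2 fold changes of 0.14 and -0.12.

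At the cell surface, Tlr5, the flagellin receptor, was at 33.4, 40, 42.2 and 39.6 CPM in cDC2 libraries, against 0, 0.0495, 0.151 and 0 CPM in cDC1 libraries. Tlr1, Tlr6 and Tlr2, which pair to bind lipoproteins, were 29.9-fold, 3.03-fold and 2.03-fold higher in cDC2. Tlr4, the receptor for lipopolysaccharide, and its partner Ly96 were 1.45-fold and 1.6-fold lower, and Tlr4 did not pass with scaling by library totals alone (adjusted p = 0.0539) or in the R26-Zeb2Tg/Tg line alone (adjusted p = 0.138), and Ly96 in neither line alone (adjusted p = 0.0816 and 0.0671). Of 24 genes of sensing in the cytosol, 13 were higher and 2 lower. Ddx58, which encodes the RNA sensor RIG-I, was at 76.3, 82, 74.3 and 74.6 CPM in cDC2 libraries, against 0.525, 0.644, 1.36 and 2.41 CPM in cDC1 libraries. The inflammasome genes Nlrc4 and Nlrp3 were 7.06-fold and 3.29-fold higher, Nod1 was 4.32-fold higher, and Tmem173, which encodes STING, 3.54-fold higher. The transactivator of MHC class I genes Nlrc5 was 1.89-fold lower. Downstream of the receptors the adaptor gene Ticam2 was 26.1-fold higher and Ticam1, the adaptor of Tlr3, 1.93-fold lower, while Myd88 had a log2 fold change of 0.23 and did not pass.

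Receptors for sugars, antibodies and debris were for the most part higher in cDC2. Of 32 C-type lectin genes 21 were higher and 6 lower, with a median log2 fold change of 2.56. Clec10a, which binds galactose-type sugars, was at 12.6, 13.2, 21 and 13.2 CPM in cDC2 libraries, against 0.0404, 0.0495, 0.264 and 0.127 CPM in cDC1 libraries. Clec4a1 and Clec4a3 were 296-fold and 116-fold higher, and counts within the Clec4a and Cd209 families are uncertain because the genes are near-identical copies. Ly75, which encodes the uptake receptor DEC-205, was at 16.9, 21, 21.7 and 19.9 CPM in cDC2 libraries, against 185, 211, 208 and 222 CPM in cDC1 libraries. Of 26 Fc and complement genes 20 were higher and 4 lower. Fcer1g, the shared signalling chain of Fc receptors, was 21.3-fold higher (511 against 24.6 CPM) and Fcgr3, an activating receptor for IgG, 16.8-fold higher (18.3 against 1.03 CPM), or 29-fold without the first R26-Zeb2Tg/Tg cDC1 library. Fcgrt, the neonatal Fc receptor, was 2.31-fold lower (91.7 against 212 CPM), and Fcgr2b, the inhibitory IgG receptor, did not pass (47.8 against 52.4 CPM).

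Of 28 genes for uptake of dead cells and scavenging, 19 were higher in cDC2 and 7 lower. Cd36, a scavenger receptor for oxidised lipids, was at 7.81, 6.76, 17.6 and 15.3 CPM in cDC2 libraries, against 738, 629, 816 and 949 CPM in cDC1 libraries. Besides Clec9a and Cd36, the members lower in cDC2 held Havcr2, which encodes TIM-3, at 158 against 328 CPM, and Scarb1, the receptor for high-density lipoprotein, at 129 against 233 CPM. On the other side Lrp1, an uptake receptor for calreticulin-coated cells, was 31.1-fold higher (60.5 against 1.94 CPM), Msr1 38-fold higher (8.3 against 0.217 CPM), and Cd300lb, a receptor of the CD300 family for membrane lipids, 110.2-fold higher. Its relative Cd300ld had 4874 counts over the cDC2 libraries, against 8 over the cDC1 libraries, 2 of which had none.

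The most abundant MHC class II genes differed by small amounts, and the genes around them by more. Cd74, the invariant chain, averaged 35939.6 ± 3096 CPM in cDC2 and 38589 ± 5686 CPM in cDC1, and H2-Aa averaged 12072 ± 214 CPM in cDC2 and 12691 ± 1151 CPM in cDC1. Neither passed, nor did H2-Eb1, with a log2 fold change of 0.04. H2-Ab1 was 1.27-fold lower, but not in the Zeb2fl/fl line alone (adjusted p = 0.297). H2-DMb1 and H2-DMb2 encode alternative chains of the editor that loads peptides, and they went opposite ways. H2-DMb2 was at 447, 441, 429.5 and 435 CPM in cDC2 libraries, against 75, 71.9, 63.5 and 80.6 CPM in cDC1 libraries. H2-DMb1 was at 317, 286, 331 and 309 CPM in cDC2 libraries, against 677, 659.6, 543 and 639 CPM in cDC1 libraries. Neither gene overlapped between the subsets, and the pair are close copies whose reads may have been divided between them. H2-Eb2 was 9.55-fold higher (135 against 14 CPM). Ctss, the protease that trims the invariant chain, was 2.32-fold higher (1469 against 634 CPM), as were the asparaginyl protease gene Lgmn (2.79-fold) and the thiol reductase gene Ifi30 (2.35-fold). March1, whose ubiquitin ligase removes MHC class II from the surface, was 1.37-fold lower, but not with scaling by library totals alone (adjusted p = 0.0782) or in the R26-Zeb2Tg/Tg line alone (adjusted p = 0.336). The whole list of 20 tested members held 8 higher and 5 lower.

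Genes of MHC class I loading leaned the other way. Of 31 tested members 20 were lower in cDC2 and 2 were higher, with a median log2 fold change of -0.80. Wdfy4, which cDC1 need for cross-presentation, was at 669.6, 805, 843 and 728 CPM in cDC2 libraries, against 2188, 2817, 2611 and 2402 CPM in cDC1 libraries. Tap1, part of the pump that carries peptides into the endoplasmic reticulum, was at 346, 361, 338 and 356 CPM in cDC2 libraries, against 927, 990.3, 779.8 and 939 CPM in cDC1 libraries. The cDC2 libraries lay below the cDC1 libraries throughout for both genes. The immunoproteasome genes Psmb9 and Psmb8 were 2.98-fold and 2.33-fold lower, the loading chaperone gene Pdia3 2.93-fold lower and the translocon gene Sec61g 2.74-fold lower. The exceptions were B2m, the light chain of class I, at 4219 against 2903 CPM, which did not pass in the Zeb2fl/fl line alone (adjusted p = 0.119), and Lnpep, an endosomal peptide trimmer, at 78.3 against 47.6 CPM. The heavy chain genes H2-K1 and H2-D1 did not pass, with log2 fold changes of 0.22 and -0.10.

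Lysosomal genes gave the largest absolute differences. Cst3, which encodes the cysteine protease inhibitor cystatin C, was at 938, 972, 816 and 943 CPM in cDC2 libraries, against 18254, 20671, 15264 and 17448 CPM in cDC1 libraries. Psap, the precursor of the saposins that help break down sphingolipids, was at 3395, 3220.1, 5246 and 3883 CPM in cDC2 libraries, against 16452, 18960.5, 11305 and 16862 CPM in cDC1 libraries. Ppt1, which removes palmitate from proteins, was 30.1-fold lower in cDC2 (187 against 5634 CPM), and Gusb, beta-glucuronidase, 12.7-fold lower (91.9 against 1168 CPM). Yet in the list of lysosomal proteases and inhibitors, which does not hold Ppt1, more members were higher, 23 of 41 against 14 lower. Ctsa, a protective carboxypeptidase, averaged 601 ± 57 CPM in cDC2 and 111 ± 10.9 CPM in cDC1. Ctsd and Ctsc, an aspartic and a dipeptidyl protease, were 4.33-fold and 3.28-fold higher, and Npc1, the cholesterol exporter of lysosomes, 4.04-fold higher. Ctsb did not pass (830.1 against 721 CPM). The proton pump list held 6 lower and 2 higher of 17 tested genes (35.3% and 11.8%). Atp6v0a2 was 3.17-fold lower (153 against 485 CPM) and Atp6v0a1, another isoform of the same subunit, 1.5-fold higher (40.1 against 26.6 CPM).

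Ribosomal, respiratory chain and proteasome genes were for the most part lower in cDC2. Of 46 ribosomal protein genes 42 were lower in cDC2 and 0 were higher, with a median log2 fold change of -0.56. Of 42 nuclear genes of the respiratory chain 36 were lower and 0 were higher, with a median of -0.57. Of 37 proteasome genes 31 were lower and 0 were higher, with a median of -0.50. With scaling by library totals alone these medians were -0.42, -0.44 and -0.37, and the counts lower were 33, 33 and 25. Rps2, a protein of the small ribosomal subunit, was 1.75-fold lower, Cox7b, a subunit of cytochrome oxidase, 2.28-fold lower (46.6 against 106 CPM), and Uqcrb of complex III 2.27-fold lower (70.1 against 159 CPM). Many ribosomal protein genes have processed pseudogenes with the same sequence, so their counts are uncertain.

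The endoplasmic reticulum list fell with them: 26 of 37 members were lower and 2 were higher, with a median of -0.78. Creld2 and Manf, secreted products of the unfolded protein response, were 3.58-fold and 2.77-fold lower. Hsp90b1, the chaperone GRP94, was at 261, 249, 246 and 284 CPM in cDC2 libraries, against 894, 727, 724 and 817 CPM in cDC1 libraries. Every cDC2 library had less than any cDC1 library. Among the 2 higher was Atf6, a sensor of the same response (167 against 99.6 CPM). Cholesterol synthesis held 14 lower and 0 higher of 26, led by Fdps, farnesyl diphosphate synthase, at 31.7 against 103 CPM, Nsdhl at 16.3 against 42.8 CPM and Sqle, squalene epoxidase, at 27.5 against 58.5 CPM.

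As shares of all counts, 3 of 4 classes examined were smaller in cDC2. Ribosomal protein genes took 2.1, 1.87, 1.91 and 1.88% of counts in cDC2 libraries, against 2.64, 2.52, 2.38 and 2.46% in cDC1 libraries. Respiratory chain genes took 0.621, 0.553, 0.552 and 0.575% of counts in cDC2 libraries, against 0.862, 0.754, 0.789 and 0.756% in cDC1 libraries. The lysosomal class was the list of lysosomal proteases and inhibitors, which also holds Psap and Gm2a but not Ppt1. Of the 41 tested members of this class 23 were higher in cDC2 and 14 lower. Its genes took 1.82, 1.83, 1.99 and 1.89% of counts in cDC2 libraries, against 4.63, 4.96, 3.9 and 4.67% in cDC1 libraries. For each of these the subsets did not overlap, with differences of -0.56 percentage points, -0.215 percentage points and -2.66 percentage points and p = 0.0286 by a two-sided exact permutation test, the smallest that 70 assignments allow (0.0381 after adjustment over the 4 classes). Libraries were reassigned without regard to line, unlike in the tests of single genes. MHC class II genes took 7.87, 8.65, 8.6 and 8.21% of counts in cDC2 libraries, against 7.84, 9.04, 7.34 and 8.33% in cDC1 libraries, and the subsets overlapped (difference 0.194 percentage points, exact permutation p = 0.686). The lysosomal difference rested on the most abundant genes: when the 50 most abundant genes of the libraries were left out of the class and of the total, it was 0.104 percentage points in the other direction, with cDC2 higher (exact permutation p = 0.0286). On the same footing the MHC class II difference was 0.217 percentage points (exact permutation p = 0.0286).

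**Figure D3:**
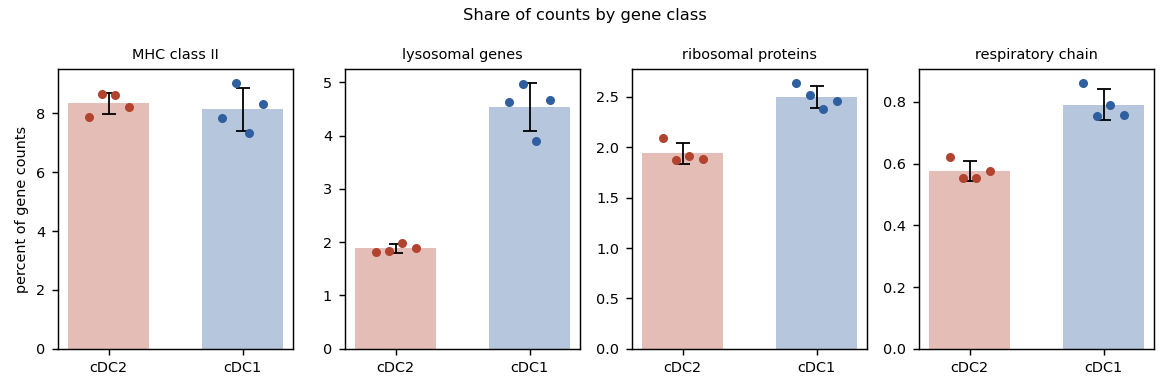
Percent of each library's gene counts taken by 4 gene classes, with cDC2 left and cDC1 right; points are libraries, bars are means and error bars are SDs of 4 libraries. The listed lysosomal, ribosomal and respiratory chain genes take a smaller share in every cDC2 library, and MHC class II genes take 8.33% in cDC2 and 8.14% in cDC1 on average.

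**Figure D4:**
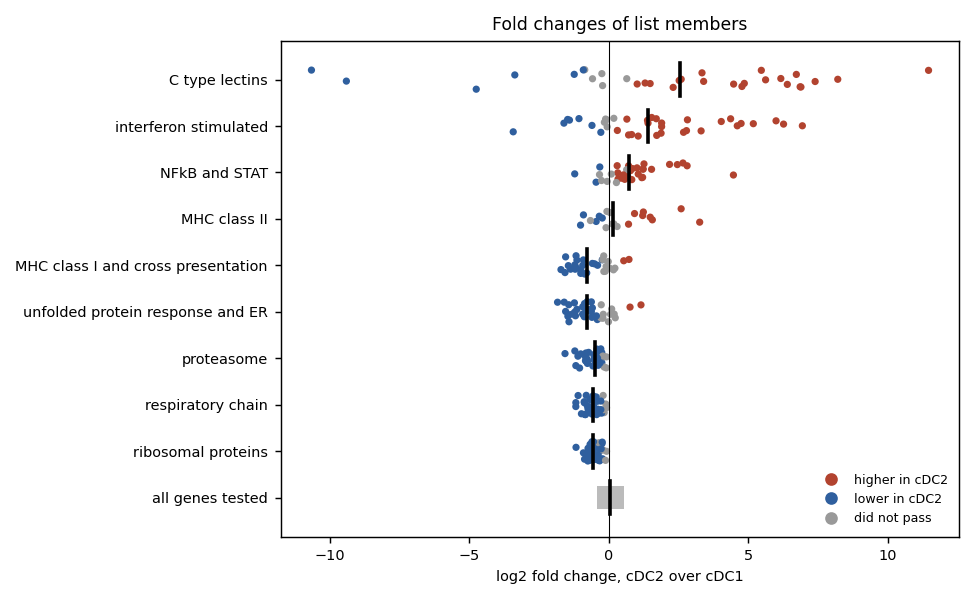
Log2 fold change (cDC2 over cDC1) of each tested member of 9 lists and, at the bottom, the spread over all genes tested; points are genes, the black bar is the median and the grey box of all genes is their interquartile range. The ribosomal, respiratory chain and proteasome lists sit in a narrow band below 0, with medians of -0.56, -0.57 and -0.50, while the interferon and lectin lists spread widely above 0.

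The NADPH oxidase, which makes superoxide in phagosomes, was a point of sharp contrast. Cybb, its catalytic subunit gp91phox, was at 529, 618, 600.3 and 625 CPM in cDC2 libraries, against 4.53, 2.77, 1.93 and 2.2 CPM in cDC1 libraries. Hvcn1, the proton channel that balances the charge, was 16.4-fold higher in cDC2 (80.2 against 5 CPM). The partner subunits Cyba and Ncf1 did not pass (650.2 against 551 CPM and 239 against 218 CPM). Antioxidant genes went both ways. Txn1, thioredoxin, was at 70.9, 60.7, 47 and 61.6 CPM in cDC2 libraries, against 298, 305, 299 and 274 CPM in cDC1 libraries. Gclc, the limiting enzyme of glutathione synthesis, was 4.51-fold lower (35.2 against 159 CPM) and Sod1, a superoxide dismutase, 2.43-fold lower (29.9 against 72.7 CPM). Gsr and Gpx4, which act in the cycling of glutathione, were 1.98-fold and 1.84-fold higher. The list of 32 tested genes held 10 higher and 14 lower.

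In glycolysis the subsets used different members of the same families. Slc2a3, the high-affinity glucose transporter GLUT3, was at 253, 262, 228 and 222 CPM in cDC2 libraries, against 8.73, 3.66, 7.75 and 3.63 CPM in cDC1 libraries. Of the hexokinases, Hk1 was 1.94-fold higher in cDC2 (72 against 37.2 CPM), Hk3 was 22.6-fold lower (9.02 against 194 CPM) and Hk2 did not pass (38.2 against 39.4 CPM). Hk1 was named after its values were seen. Pfkp, a platelet-type phosphofructokinase, was 4.95-fold lower (47.4 against 233 CPM), Pgk1 and Pgam1 were 2.59-fold and 2.33-fold lower, and the lactate exporter Slc16a3 was 6.98-fold higher while its relative Slc16a1 was 2.52-fold lower. In all 9 of 27 members were higher and 12 lower. Of 28 citrate cycle genes 15 were lower, with Suclg1 and Sdhd at 84.4 against 151 CPM and 133 against 228 CPM. Among the 3 higher was mitochondrial malate dehydrogenase, Mdh2, at 961, 1178, 1381 and 1346 CPM in cDC2 libraries, against 348, 342, 324 and 374 CPM in cDC1 libraries.

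**Figure D5:**
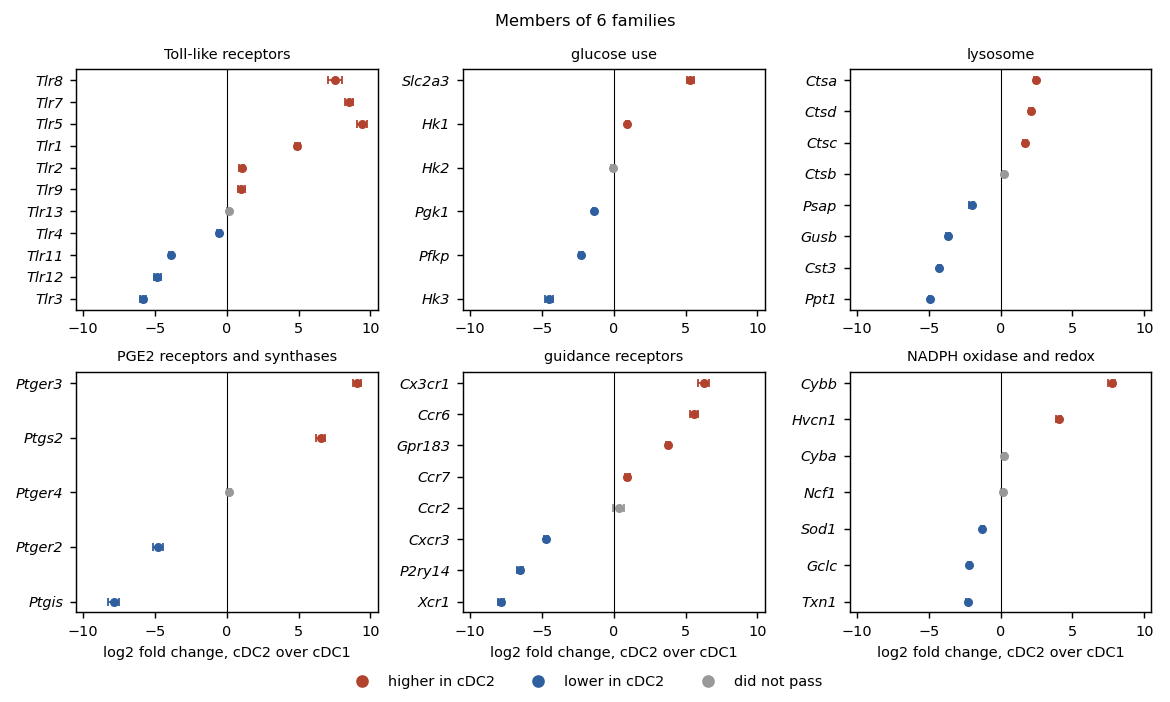
Log2 fold change (cDC2 over cDC1, points) with its standard error (bars) for members of 6 families, coloured by whether the gene was higher in cDC2, lower in cDC2 or did not pass. Within each family members lie on both sides of 0, as for Tlr7 and Tlr3 or Slc2a3 and Hk3.

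Lipid handling held large single differences. Plin2, which coats lipid droplets, was at 18.2, 17.5, 25.7 and 17.7 CPM in cDC2 libraries, against 221, 229, 224 and 217 CPM in cDC1 libraries. Fasn, fatty acid synthase, was 2.87-fold lower in cDC2 (113 against 327 CPM) and Scd1, a desaturase, 5-fold lower (3.02 against 15.2 CPM). Fabp5, a carrier of fatty acids, was 23.1-fold higher (101 against 4.37 CPM), Lpl, lipoprotein lipase, 53.9-fold higher at a low level (5.38 against 0.096 CPM), and the cholesterol exporter Abca1 7.73-fold higher (8.84 against 1.12 CPM). Slc7a11, the cystine importer, was 38.5-fold higher (16.7 against 0.44 CPM), and Slc7a8, a neutral amino acid transporter, 10.9-fold lower (3.1 against 31.4 CPM). Slc11a1, the phagosomal metal transporter NRAMP1, was at 21.8, 21.1, 47 and 40.9 CPM in cDC2 libraries, against 229, 313, 198 and 226 CPM in cDC1 libraries. Tfrc, the transferrin receptor, was 3.56-fold higher (54.8 against 15.3 CPM), and Fth1, the heavy chain of ferritin, 1.96-fold higher (3408 against 1739 CPM).

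Genes of prostaglandins and leukotrienes were higher in cDC2 in 17 of 33 cases and lower in 6. Ptgs2, the inducible cyclooxygenase, was at 846, 872, 1803 and 3176 CPM in cDC2 libraries, against 7.39, 17.9, 16.6 and 24.1 CPM in cDC1 libraries. Ptger3, a receptor for prostaglandin E2, was at 67.5, 79.2, 103 and 74 CPM in cDC2 libraries, against 0.121, 0, 0.227 and 0.211 CPM in cDC1 libraries. No cDC1 library came near a cDC2 library for these genes. Another receptor for the same ligand, Ptger2, was 27.8-fold lower (0.446 against 11.7 CPM), or 42-fold without the first R26-Zeb2Tg/Tg cDC2 library, and Ptger4 did not pass (219.6 against 193 CPM). Ptgis, prostacyclin synthase, was 235-fold lower (0.213 against 52.9 CPM). Ltb4r1, a receptor for leukotriene B4, was 38.4-fold higher (31.6 against 0.806 CPM), as was Pla2g7, which inactivates platelet activating factor (21.2-fold). Among receptors for nucleotides and metabolites 18 of 33 were higher and 10 lower. P2ry14, a receptor for UDP-glucose, was at 3, 1.63, 1.84 and 2.9 CPM in cDC2 libraries, against 199, 214, 242 and 208 CPM in cDC1 libraries. Gpr171 was 32.4-fold lower (18.1 against 590.1 CPM), while Ffar2, a receptor for short-chain fatty acids, was 7.33-fold higher (163 against 22.1 CPM) and the histamine receptor Hrh1 17.6-fold higher (24.8 against 1.37 CPM).

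Receptors that guide cells in the spleen divided the subsets. Gpr183 (EBI2), which leads cDC2 to the bridging channels along oxysterols, was at 301, 386, 379.7 and 545 CPM in cDC2 libraries, against 24.8, 20.1, 38.3 and 35.3 CPM in cDC1 libraries. Cx3cr1, the fractalkine receptor, was 76.2-fold higher (83.8 against 1.07 CPM), or 120.2-fold without the first R26-Zeb2Tg/Tg cDC1 library, Ccr6 48.2-fold higher (33 against 0.667 CPM) and Ccr7, which guides cells to T cell zones, 1.94-fold higher (1270.3 against 647 CPM). Cxcr3, a receptor for interferon-induced chemokines, was 26.1-fold lower (4.19 against 109 CPM), and Ccr2 did not pass (144 against 112 CPM). Of 23 chemokine genes 5 were higher and 7 lower. Cxcl9, a ligand of Cxcr3, was at 22.8, 14.8, 16.4 and 16.7 CPM in cDC2 libraries, against 260.1, 267, 256 and 272 CPM in cDC1 libraries. Ccl22, which draws regulatory T cells, was 5.15-fold lower (16.3 against 82.3 CPM) and Cxcl16 2.18-fold lower (116 against 252 CPM), while Ccl9, Ccl5 and Ccl3 were 65.4-fold, 8.33-fold and 4.83-fold higher, the last with overlap between the subsets.

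Cytokine genes were higher in cDC2 in 13 of 26 cases and lower in 5. Il12b, the shared chain of interleukin-12 and interleukin-23, was at 7.09, 3.89, 7.82 and 10.3 CPM in cDC2 libraries, against 77.1, 76.6, 60.2 and 78.2 CPM in cDC1 libraries. Il15, which sustains NK and CD8 T cells, was 3.56-fold lower (4.44 against 15.8 CPM). Il1b, interleukin-1 beta, was 2.94-fold higher (2216 against 738 CPM), and its antagonist Il1rn was 142-fold higher (49.8 against 0.362 CPM). Vegfa, an angiogenic factor, was at 64.7, 38.1, 95.8 and 91.1 CPM in cDC2 libraries, against 0.0808, 0.792, 0.793 and 0.211 CPM in cDC1 libraries. Ltb, lymphotoxin beta, was 16.5-fold higher (440.5 against 26.8 CPM) and Osm, oncostatin M, 15.6-fold higher (13.4 against 0.852 CPM). Tnf did not pass (31.5 against 23.5 CPM).

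Of 45 receptors for cytokines and growth factors 27 were higher and 7 lower. Csf1r, the receptor for M-CSF, was at 570.2, 597, 989 and 756 CPM in cDC2 libraries, against 18.8, 24.3, 16.8 and 20.8 CPM in cDC1 libraries. Csf3r, the receptor for G-CSF, was 27.4-fold higher (24.2 against 0.86 CPM) and the decoy receptor Il1r2 20.6-fold higher (26 against 1.27 CPM). Flt3, whose ligand sustains all cDCs, was 1.38-fold lower (396 against 547 CPM), and Il15ra, which presents interleukin-15, 2.45-fold lower (3.86 against 9.48 CPM). The inhibitory ligand genes Cd274 and Pdcd1lg2 (PD-L1 and PD-L2) were 6.83-fold and 23.7-fold higher (163 against 23.9 CPM and 40.3 against 1.72 CPM). Cd86, a costimulatory ligand of CD28, was at 95.1, 87.5, 85.2 and 99.9 CPM in cDC2 libraries, against 436, 515, 508 and 496 CPM in cDC1 libraries. Btla, an inhibitory receptor for HVEM, was 6.89-fold lower (92.7 against 635 CPM), and Cd40 did not pass (76 against 71.1 CPM).

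Signalling genes below these receptors were more often higher. Of 33 genes of the NF-kB and STAT pathways 24 were higher and 3 lower, with a median log2 fold change of 0.71. Nfkb1 was at 579.7, 628, 600.3 and 562 CPM in cDC2 libraries, against 105, 78, 89.5 and 103 CPM in cDC1 libraries. Relb, a factor of cDC2 development, was 4.52-fold higher (607 against 134 CPM) and Stat4 22.1-fold higher (48.5 against 2.19 CPM). The inhibitor-like Nfkbiz was at 79, 78.1, 159.7 and 455 CPM in cDC2 libraries, against 13.8, 26.1, 24.1 and 26.6 CPM in cDC1 libraries, with the second Zeb2fl/fl cDC2 library far above the other cDC2 libraries. Tyk2, the kinase of interleukin-12 and interferon receptors, was 2.34-fold lower (111 against 258 CPM). Of 43 genes of tyrosine kinase signalling 26 were higher and 7 lower: the Src-family kinase gene Fgr was 11.5-fold higher (601 against 52.5 CPM) and Ptpro, a receptor phosphatase, 24-fold higher (134 against 5.56 CPM), while Inpp5d, the lipid phosphatase SHIP1, was 1.95-fold lower (479 against 932 CPM). Rasgrp1, an activator of Ras, was 28.7-fold higher (61.5 against 2.1 CPM) and its relative Rasgrp3 2.35-fold lower (62.5 against 147 CPM).

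In the Notch pathway the receptor that cDC2 rely on did not mark the subset. Notch2 was at 226, 234, 344 and 268 CPM in cDC2 libraries, against 249, 320.2, 319 and 298 CPM in cDC1 libraries, and the subsets overlapped. Dtx1, a ubiquitin ligase induced by Notch, was at 357, 432, 579 and 446 CPM in cDC2 libraries, against 1.66, 0.545, 1.1 and 1.31 CPM in cDC1 libraries, and no libraries overlapped. Notch4 was 18.9-fold lower in cDC2 (6.84 against 128 CPM), as were the ligand gene Jag2 (39.8-fold, 0.647 against 27.4 CPM) and the coactivator gene Maml2 (5.45-fold, 1.28 against 5.75 CPM). Hes1, a classical target, was 1.7-fold higher (94 against 54.9 CPM). The list held 11 higher and 10 lower of 28.

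Integrins were lower in 10 and higher in 7 of 19 cases. Itgam, which encodes CD11b, was at 155, 145, 170.2 and 163 CPM in cDC2 libraries, against 4.36, 2.52, 1.51 and 3.34 CPM in cDC1 libraries. Itgae, which encodes CD103, was at 0.338, 0.177, 0.0752 and 0.155 CPM in cDC2 libraries, against 92.9, 272, 75 and 89.6 CPM in cDC1 libraries. CD11b and CD103 are commonly used to sort dendritic cells, and neither gene overlapped between the subsets. Itgb3 was 39.4-fold higher (42.4 against 1.06 CPM), or 74.2-fold without the first R26-Zeb2Tg/Tg cDC1 library, and Itga8 14-fold lower (5.93 against 76 CPM). Itgax, which encodes the pan-dendritic CD11c, was 1.88-fold higher (1033 against 548 CPM). Cadm1, an adhesion molecule that marks cDC1 in several species, was 30.8-fold lower (21.7 against 631 CPM), and Sema4a, a semaphorin, 5.81-fold lower (64.6 against 376 CPM). Myo1e, a membrane-bound myosin, was 116-fold higher (57.9 against 0.5 CPM).

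Genes of division gave small differences. Of 35 mitosis genes 13 were higher and 3 lower, and of 37 replication genes 6 were higher and 3 lower. Top2a, which untangles chromosomes, was 2.01-fold higher (84 against 41.7 CPM) and Kif23, a motor of cytokinesis, 1.71-fold lower (33.3 against 57.3 CPM). Cyclins that open the cycle differed more: Ccnd2 was 7.54-fold higher (83.8 against 11.5 CPM) and Ccnd1 was at 289.9, 269, 270.3 and 217 CPM in cDC2 libraries, against 51.9, 69.6, 56 and 51.3 CPM in cDC1 libraries. The Bcl2 family list held 8 higher and 9 lower of 26 tested genes. Pmaip1 (NOXA) was 1.95-fold higher (1423 against 768 CPM). Its cDC1 libraries were at 511 and 540 CPM in the R26-Zeb2Tg/Tg line and at 1045 and 976 CPM in the Zeb2fl/fl line. Bid and Bcl2l11 (BIM) were 2.18-fold and 1.65-fold lower (41.8 against 90.6 CPM and 45.4 against 75.3 CPM).

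Interferon-stimulated genes were higher in cDC2 in 25 of 37 cases and lower in 7, with a median log2 fold change of 1.40. Ifit3, which binds viral RNA complexes, was at 26.7, 19.9, 22.1 and 19.6 CPM in cDC2 libraries, against 0.323, 0.792, 0.567 and 0.76 CPM in cDC1 libraries. Rtp4 was 123-fold higher (52.8 against 0.424 CPM), or 210-fold without the first R26-Zeb2Tg/Tg cDC1 library, and Oasl2 24.3-fold higher (41.1 against 1.7 CPM). In the other direction Ly6e was 3.06-fold lower (854 against 2619 CPM), Trim30a 2.1-fold lower (78.7 against 166 CPM) and Mx1 2.79-fold lower (2.55 against 7.16 CPM). Ifit genes are near copies of each other, and their counts may be divided unevenly. Interferon factors bind a repeated GAAA, so the 250 bases before a transcript start of each gene in RefSeq (GRCm38.p6) were searched on both strands for 2 copies of GAAA with 2 bases between them, with 1 window taken per gene. These letters were in 3.04% of all 27025 windows and in 2.91% of the 9572 windows of tested genes. Windows were available for 26 of the 37 interferon-stimulated genes, among them 20 of the 25 higher and 4 of the 7 lower, and the rest were not searched. The letters were in 12 of the 20 windows of interferon-stimulated genes higher in cDC2 and in 2 of the 4 of those lower. Among genes at least 2-fold higher in cDC2 4.91% of 1262 windows held them, and among genes at least 2-fold lower 2.91% of 859. A match is a description of the letters and not a binding site. The windows of the most different members that held the letters are shown 5′ to 3′ along the gene's strand, with each match in capitals. The window of Ifit3 lies before a later start than the first one listed for the gene.
Ifit3, higher in cDC2, chr19:34583279-34583528, plus strand: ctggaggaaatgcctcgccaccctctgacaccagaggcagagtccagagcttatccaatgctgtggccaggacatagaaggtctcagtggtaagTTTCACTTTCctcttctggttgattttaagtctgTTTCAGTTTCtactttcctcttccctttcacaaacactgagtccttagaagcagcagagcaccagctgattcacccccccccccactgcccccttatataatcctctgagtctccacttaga
Ifit1, 26.7-fold higher in cDC2 (20.1 against 0.736 CPM), chr19:34640639-34640888, plus strand: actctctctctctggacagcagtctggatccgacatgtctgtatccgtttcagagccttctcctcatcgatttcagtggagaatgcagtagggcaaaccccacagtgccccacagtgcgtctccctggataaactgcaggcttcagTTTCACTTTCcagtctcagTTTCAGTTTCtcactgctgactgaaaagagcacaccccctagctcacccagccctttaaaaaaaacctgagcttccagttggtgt
Trim30a, lower in cDC2, chr7:104465194-104465443, minus strand: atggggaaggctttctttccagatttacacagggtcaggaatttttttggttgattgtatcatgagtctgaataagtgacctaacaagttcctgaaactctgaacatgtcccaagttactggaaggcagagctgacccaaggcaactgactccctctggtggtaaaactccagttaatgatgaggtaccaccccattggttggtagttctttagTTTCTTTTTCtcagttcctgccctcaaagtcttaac
The windows of Ifit3 and Ifit1 each held 2 matches and that of Trim30a held 1, so genes with the same letters moved in both directions.

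Measured as CPM differences, early-response genes led those higher in cDC2. Zfp36, which destabilises cytokine mRNA, was at 2869.7, 3821, 4697 and 4017 CPM in cDC2 libraries, against 1132, 1719, 1791 and 1699 CPM in cDC1 libraries. Dusp1, a phosphatase of MAP kinases, was 2.22-fold higher (3192 against 1436 CPM), Fos 1.44-fold higher (4730.3 against 3271 CPM) and Nr4a1 1.86-fold higher (3974 against 2045 CPM). In the R26-Zeb2Tg/Tg line alone Fos and Nr4a1 did not pass (adjusted p = 0.0763 and 0.162). The spleens were digested warm, and the first R26-Zeb2Tg/Tg cDC1 library was lowest for each of these genes among cDC1 libraries. The cDC2 libraries of the Zeb2fl/fl line were above those of the R26-Zeb2Tg/Tg line. The same order of libraries held for others named above, among them Ptgs2, Il1b, Nfkbiz, Ccl3 and Bhlhe40. The part of handling in all these differences was not tested. Besides Cst3 and Psap, the 10 genes lower in cDC2 by the largest CPM differences held Tmsb4x, thymosin beta 4, at 10349.8 against 21053 CPM, and Actb and Actg1, the cytoplasmic actins, at 8104 against 12682 CPM and 4179.6 against 8267 CPM. Rn45s, the ribosomal RNA precursor, was among them too (11962 against 19538 CPM), and such counts vary with how much ribosomal RNA passes into a library, which was not tested.

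The contrast was also fitted in each line alone. In the R26-Zeb2Tg/Tg line alone 2362 genes were higher and 2375 lower (19.6% and 19.7% of 12058 tested), and in the Zeb2fl/fl line alone 2512 were higher and 2323 lower (20.9% and 19.3% of 12030). The test of whether the subset difference itself differed between the lines called 0 genes by edgeR, with 924 genes (7.38%) at an unadjusted p under 0.05, and 40 by DESeq2. The smallest p-values belonged to C1qc, Slc11a1, Hhex, Pmaip1, Tbxas1 and Kntc1, each with an adjusted p of 0.275. C1qc, a chain of complement C1q that macrophages express, was at 20.5, 20.4, 36.1 and 40.2 CPM in cDC2 libraries, against 6.63, 6.93, 2.34 and 3.97 CPM in cDC1 libraries. Its subset difference was smaller in the R26-Zeb2Tg/Tg line, with an interaction of -2.01 ± 0.32 on the log2 scale. For Slc11a1, whose values stand above, the interaction was -1.38 ± 0.23, with the cDC2 libraries of the R26-Zeb2Tg/Tg line lowest of all.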

How the data were processed

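RNA of sorted splenic cDC2 and cDC1 was sequenced, per the labels' protocols, from 4 ng of RNA with SMART-Seq v4, 15 PCR cycles and 250 bp inserts, and read over 75 bp. FastQC 0.11.4, Trimmomatic 0.35, TopHat2 2.1.0, SAMtools 0.1.18 and the mm10 build are named in the submitters' processing notes. The authors deposited whole-number counts per gene symbol, without scaling, for 24421 symbols. The sources used here do not give the counting program, annotation or use of strand, so overlapping and antisense genes cannot be told apart. Lines for reads in no gene were left out of totals and tests. They held 12 to 14.6% of reads in cDC2 and 11.4 to 15.2% in cDC1.

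Fits to the 8 Cre-negative libraries used edgeR 4.0.16 under R 4.3.3. Genes were kept by filterByExpr (minimum count 10, minimum total 15), scaled by TMM and fitted by the quasi-likelihood test with line and subset as terms, adjusted by Benjamini-Hochberg at 0.05. An interaction of subset and line was fitted in the same way. Shares of counts were compared by a two-sided exact permutation test over 70 assignments, which did not take the line into account. The 8 libraries, the 65 gene lists and the tests were chosen with earlier results of these data known. Lists were described by counts and medians, and no list was tested as a set. A rule set which genes could be named. It admitted Zeb2, Id2 and the 5 markers. Each list could give up to 6 passing members per direction by fold change, with at least 4 CPM in the higher subset. It could also give up to 3 that did not pass, and lists of at most 12 any member. Also admitted were the 10 passing genes per direction with the largest CPM difference. The 6 with the smallest interaction p were taken although none passed. Not every admitted gene was named, so a named gene need not be the largest of its list. The lectin list, for example, ran from -10.7 to 11.5 on the log2 scale. Hk1 and the other-cell markers named for their level lie outside the rule. The procedure was tested on simulated counts. Alternatives were DESeq2 1.42.0, other scalings and filters, all 24 libraries, no line term, a replicate block, a 2-fold minimum, each line alone and leaving out each library. Replicate numbers did not pair the libraries.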

Additional observations from a re-analysis of the deposited data

Results flagged for a closer look

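Library values given one by one, shares of counts and summed marker levels were examined in 126 groups of 4 libraries for a library far from the other 3, and chance alone flags about 1 in 20 such groups. In cDC2, the first Zeb2fl/fl library was high for Clec10a, at 21 CPM beside 12.6 to 13.2 CPM, and for Plin2, at 25.7 CPM beside 17.5 to 18.2 CPM. In cDC1, the first R26-Zeb2Tg/Tg library was high for Cd3e, at 4.00 CPM beside 0.38 to 0.605 CPM, and low for Zfp36, at 1132 CPM beside 1699 to 1791 CPM. The second R26-Zeb2Tg/Tg cDC1 library was high for Itgae, at 272 CPM beside 75 to 92.9 CPM, and for Xcr1, at 1267 CPM beside 984 to 1027 CPM. The first Zeb2fl/fl cDC1 library was low for Sirpa, at 2.15 CPM beside 7.03 to 7.82 CPM, and for Il12b, at 60.2 CPM beside 76.6 to 78.2 CPM. The second Zeb2fl/fl cDC1 library was high for Tlr7, at 0.633 CPM beside 0.149 to 0.202 CPM. Apart from Cd3e, each of these genes kept its subsets without overlap.

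For 1 named gene the cDC2 libraries lay below the cDC1 libraries in the R26-Zeb2Tg/Tg line and above them in the Zeb2fl/fl line, and the difference between lines did not pass the test. It was Kntc1, which acts at the kinetochore, with an interaction of -1.67 on the log2 scale and an adjusted p of 0.275 by edgeR.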

How the results depend on the processing

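The counts of 3286 higher and 3145 lower genes stayed within 1.5 times under every alternative run except the 2-fold minimum, which left 1142 higher and 717 lower, and they ranged from 2922 to 3194 and from 2739 to 3061 when 1 library was left out. The interaction of subset and line called no gene by edgeR with its usual filter, but 72 and 95 genes (difference higher and lower in the R26-Zeb2Tg/Tg line) with no low-count filter and 18 and 22 with DESeq2. Leaving out 1 library gave 0 to 7 and 0 to 1, with the highest counts without the first R26-Zeb2Tg/Tg cDC1 library. The cause was not tested. A replicate block gave 3179 higher, 3015 lower and no interaction, and the replicate deviations of the subsets correlated at 0.0429 and -0.017 in the lines. Without the 50 most abundant genes the lysosomal difference turned to 0.104 percentage points, since Psap, Cst3 and Gm2a are among the genes left out, and the MHC class II difference became 0.217 (exact permutation p = 0.0286 for each). Leaving out 1 library moved the MHC class II difference between -0.0719 and 0.495 points, the lysosomal one between -2.87 and -2.52, the ribosomal one between -0.612 and -0.513 and the respiratory one between -0.23 and -0.191.

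Of 233 named genes past the threshold, 0 changed sign under any alternative run; 66 did not pass the 2-fold minimum, 13 did not pass in a line alone, 3 did not pass with library totals and 1, Irf2bpl, lost its call when a library was left out. Sign changes fell among genes that had not passed. With library totals alone Cd74 (0.0392), Fcgr2b (0.0117), H2-Aa (0.0695), H2-D1 (0.0390), Hk2 (0.0868) and Unc93b1 (0.0213) turned positive. In the R26-Zeb2Tg/Tg line alone Cd40 (-0.0276), H2-Eb1 (-0.0553), Hhex (0.0829), Kntc1 (-0.40), Ptger4 (-0.0566) and Tnf (-0.50) changed sign, and in the Zeb2fl/fl line alone Cd74 (0.0175), Hk2 (0.12) and Tlr13 (-0.0725) did. When 1 library was left out, the log2 fold change ranged from -0.30 to 1.55 for Cd3e, from -0.20 to 0.00575 for Cd74, from -0.0360 to 0.114 for H2-Eb1, from -0.12 to 0.0909 for Hk2 and from -0.41 to 0.62 for Tnf. Depth limits genes near 1 CPM: Cd3e had 192 counts over the 4 cDC2 libraries and 132 over the 4 cDC1 libraries.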

Other observations

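Several lists outside the accounts above are given here, and not all of them departed from the shares over all genes. Of 42 chromatin regulators 22 were higher in cDC2 and 4 lower, with a median log2 fold change of 0.37. Prdm1, which encodes the repressor BLIMP-1, averaged 25.2 ± 8.4 CPM in cDC2 and 1.77 ± 1.4 CPM in cDC1. Satb1, an organiser of chromatin loops, was 2.65-fold higher (94.2 against 35.6 CPM), and Hdac6, a cytoplasmic deacetylase, 2.02-fold lower (22.7 against 45.5 CPM). Of 28 genes of TGF-beta and BMP signalling 11 were higher and 5 lower. Smad7, an inhibitor of the pathway, was 3.9-fold higher (185 against 47.2 CPM), while Acvrl1, a type I receptor, was 5.06-fold lower (27.7 against 140.3 CPM). Of 12 tested retinoid and vitamin D genes 7 were higher and 3 lower, and Dhrs3, which returns retinal to retinol, was 3.61-fold higher (26.7 against 7.55 CPM).

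Of 31 tested autophagy genes 8 were higher in cDC2 and 4 lower (25.8% and 12.9%, against 26.3% and 25.1% over all genes tested). Uvrag, a partner of the lipid kinase that starts autophagosomes, was 1.97-fold higher (396 against 202 CPM), and the cargo receptor gene Sqstm1 was 1.61-fold lower (293 against 472 CPM). Of 32 genes of amino acid metabolism 12 were higher and 15 lower. Odc1, the first enzyme of polyamine synthesis, was 2.52-fold lower (56.1 against 142 CPM), and Psat1, an enzyme of serine synthesis, 1.94-fold lower (27 against 52.5 CPM). Slc38a2 and Slc38a1, which import glutamine, were 1.91-fold and 1.84-fold higher in cDC2. The list of pentose phosphate and nucleotide genes held 4 higher and 7 lower of 24. G6pdx, the entry enzyme of the pentose phosphate pathway, was 1.95-fold higher (111 against 56.9 CPM), and Taldo1 of the same pathway 1.65-fold lower (821 against 1354 CPM).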
